A study of Mus musculus with 8 samples.

Results

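The Kruppel-like factors described here are 10 transcription factor genes of the uterus that respond to hormones, Klf2, Klf3, Klf4, Klf5, Klf6, Klf9, Klf10, Klf11, Klf13 and Klf15. They were chosen by gene symbol from a table of 24963 mouse genes, and all 10 symbols were found. Of these genes, 14323 passed a filter on low values (at least 0.5 FPKM on average over the 8 libraries, where FPKM are fragments scaled to gene length and to the total of the library), and so did all 10 members. No member passed an adjusted p of 0.05 between the genotypes, but Klf2, Klf10 and Klf11 were each lower in the mutant uterus at a looser threshold, at 61.6%, 70.3% and 54.3% of the control mean. That threshold called 8.80% of all genes tested, 4.10% lower, and the call of Klf10 was lost in 4 of 8 fits that left out 1 library and with median-ratio or quantile normalization. The calls of Klf2 and Klf10 were both lost in a fit of 6 libraries matched by the numbers in their sample descriptions. The other 7 members were at 73.9% (Klf9) to 97.5% (Klf3) of the control mean. The control means hold 1 library that was the highest of all for 9 of the 10 members. Without it the control means of Klf2, Klf10 and Klf11 were 24.4, 10.7 and 7.50 FPKM, instead of 27.5, 11.4 and 9.11 FPKM.

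Kruppel-like factors bind GC-rich and CACCC-type sequences through zinc fingers at the C-terminal end of the protein, and their N-terminal regions recruit either activators or repressors. Members differ in what they recruit: Klf3 binds the corepressor CtBP, Klf2, Klf4, Klf5 and Klf6 carry activation domains, and Klf9, Klf10, Klf11 and Klf13 bind the Sin3a corepressor. In the uterus several of them follow estrogen and progesterone. Klf9 and Klf13 interact with progesterone receptor signalling, Klf5 is needed in the epithelium for implantation, Klf4 and Klf15 are tied to the control of epithelial proliferation, and Klf2 is a gene of flow-exposed endothelium.

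Whole uteri were collected at gestation day 3.5 (GD3.5) from C57B6/J females that were 8 weeks old at mating, and each uterus gave 1 library. The 4 Nr2f2 f/f mice (Nr2f2 flox/flox, labelled WT) carried both floxed alleles without Cre, and the 4 Nr2f2 d/d mice (Pgr Cre/+; Nr2f2 flox/flox) carried the same floxed alleles and a Cre knocked into Pgr. All females had mated with vasectomized males, so the uteri held no embryos, and no mouse received a treatment. Cre is active only where Pgr is expressed, so Nr2f2 stays intact in other cells, and 1 copy of Pgr is disrupted in Nr2f2 d/d but not in the controls. Nr2f2, the targeted gene, was 21.8 to 25.7 FPKM in Nr2f2 f/f and 6.90 to 9.74 FPKM in Nr2f2 d/d. The smallest value of any member rested on about 709 fragments (Klf15), a counting error of about 3.76%. Summed markers of epithelium, stroma and smooth muscle reached at least 722, 1469 and 985 FPKM in every library. The 2 hemoglobin genes of the erythroid list were at 0 in all libraries, while Alas2 of the same list was 0.992 to 3.63 FPKM. The zeros are therefore not read as an absence of blood. Nr2f2 f/f replicate 2 stood apart over all genes tested, with a Pearson correlation of 0.933 to 0.959 with the other controls, against 0.973 to 0.989 among those, and its values for the Klf genes are described with them. Among the mutants, Nr2f2 d/d replicate 3 had a correlation of 0.942 to 0.976 with the others, against 0.968 to 0.985 among those.

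Promoter sequences of RefSeq (GRCm38.p6) matched 8 of the 10 members by symbol, each 300 bases long, from 250 bases before to 50 after the annotated start site. Those of Klf2, Klf9 and Klf11 are shown on the coding strand, 5′ to 3′, because they belong to members with an unadjusted p under 0.05 in limma's test. Capitals mark matches, on either strand, to any of 5 searched words. These were the GC box GGGCGG, the CACCC-type word CCACCC, the nuclear receptor half-sites AGGTCA and GGGTCA, and the cAMP response element TGACGTCA.

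Klf2, chr8:72318812-72319111, plus strand: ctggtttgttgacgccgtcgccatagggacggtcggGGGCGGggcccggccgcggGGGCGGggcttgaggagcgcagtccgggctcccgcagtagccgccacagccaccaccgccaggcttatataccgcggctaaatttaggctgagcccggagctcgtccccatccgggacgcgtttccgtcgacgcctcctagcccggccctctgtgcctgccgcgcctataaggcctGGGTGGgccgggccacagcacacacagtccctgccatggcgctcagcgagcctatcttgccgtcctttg

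Klf9, chr19:23140976-23141275, plus strand: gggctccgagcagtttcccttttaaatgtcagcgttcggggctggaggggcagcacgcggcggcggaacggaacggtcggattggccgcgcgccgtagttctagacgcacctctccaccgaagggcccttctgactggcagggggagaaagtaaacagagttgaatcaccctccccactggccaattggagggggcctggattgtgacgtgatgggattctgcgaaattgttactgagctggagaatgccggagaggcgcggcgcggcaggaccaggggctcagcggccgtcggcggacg

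Klf11, chr12:24651121-24651420, plus strand: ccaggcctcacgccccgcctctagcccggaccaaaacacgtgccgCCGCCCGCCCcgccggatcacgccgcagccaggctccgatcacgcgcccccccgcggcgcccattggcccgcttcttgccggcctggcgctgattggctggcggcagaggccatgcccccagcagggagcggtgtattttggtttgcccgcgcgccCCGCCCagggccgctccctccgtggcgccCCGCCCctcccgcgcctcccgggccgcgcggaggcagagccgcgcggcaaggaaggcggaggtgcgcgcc

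The Klf2 promoter held GGGCGG 2 times, starting at -214 and -195 from the start site, and CCACCC once on the minus strand, at -19. The Klf11 promoter held GGGCGG 4 times on the minus strand, at -205, -201, -49 and -20, of which the first pair overlap. The Klf9 promoter held none of the 5 words, which says only that these letters are absent from this window. GGGCGG was found in 7 of the 8 member promoters and in 35.7% of all 32851 promoters, and CCACCC in 3 of 8 and in 31.5%. GGGTCA was found once, in Klf3, against 13.7% of all promoters. AGGTCA and TGACGTCA were in none of the 8, against 16.3% and 1.79% of all. The member promoters had a GC content of 63.0% to 77.7%, and the median promoter had 52.7%. The matches are letters in a window and say nothing about binding.

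In Nr2f2 f/f, Klf2 had the highest mean level and Klf15 the lowest. The full order of the control means was Klf2, Klf9, Klf6, Klf13, Klf4, Klf3, Klf5, Klf10, Klf11 and Klf15, in FPKM and therefore per length. Neighbours in that order overlapped in their ranges over the 4 libraries, except Klf6 and Klf13 and, at the lower end, Klf11 and Klf15. In Nr2f2 d/d the order was the same but for Klf6, which stood above Klf9, and only Klf9 and Klf13 had ranges that did not overlap. Klf13 was the steadiest member, with a coefficient of variation of 1.56% in the controls and 6.05% in the mutants. Klf5 varied most in the controls (41.4%) and Klf4 most in the mutants (33.0%).

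**Figure D1:**
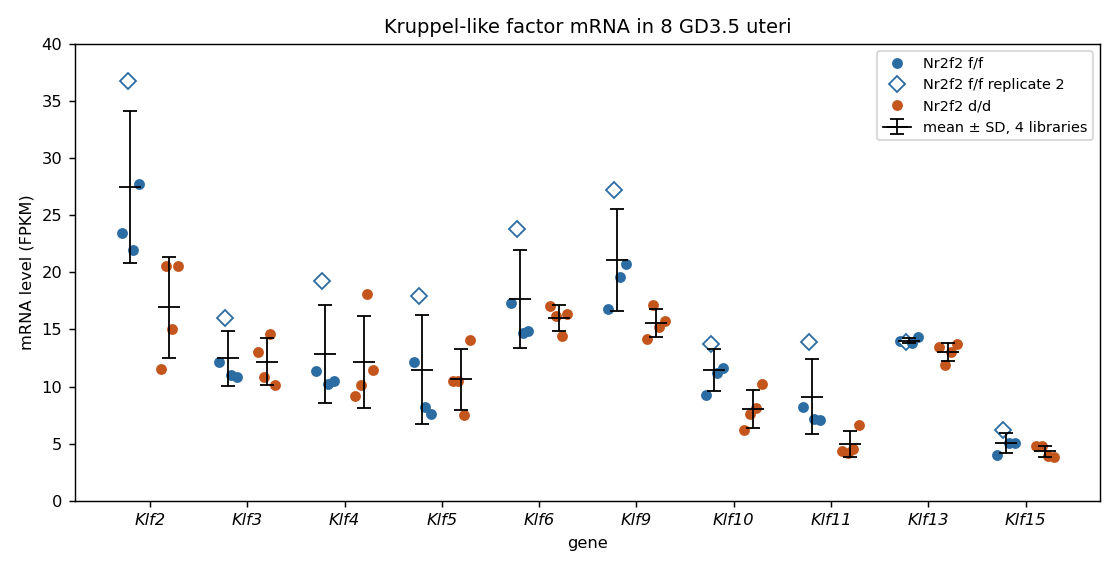
Level of each of the 10 Klf genes in FPKM (vertical axis) in every uterus; blue marks Nr2f2 f/f, orange Nr2f2 d/d, and bars give the mean ± SD of 4 libraries. The open diamond is Nr2f2 f/f replicate 2, the highest of all libraries for 9 of 10 genes, and the groups do not overlap for Klf2, Klf11 and Klf13.

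Across all genes, limma's test on log2(FPKM + 0.5) called 2.62% of the 14323 genes at an adjusted p under 0.05 (1.53% lower in Nr2f2 d/d), and 0 of the 10 members. Of these calls 219 of 375 were lower, and with median-ratio scaling 172 of 364. At the looser threshold, an unadjusted p under 0.05 and a fold of at least 1.4, it called 8.80% of all genes (4.10% lower) and 3 of the 10 members, Klf2, Klf10 and Klf11, each of them lower. Without the fold, 4 members were lower (Klf9 in addition), against 12.5% of all genes. The FPKM of the genotypes did not overlap, with Nr2f2 d/d lower, for Klf2, Klf11 and Klf13, that is 3 of 10 members, against 9.91% of all genes. All 10 members had a log2 fold change below 0, against 53.3% of all genes, and the median of the members was -0.16 on the log2 scale, against -0.019 for all genes tested. The members were chosen with results of these data known, so their counts carry no test of their own. Without Nr2f2 f/f replicate 2, 6 of 10 members remained below 0, against 55.8% of all genes, the member median was -0.11, and 2 members and 1217 genes in all passed the looser threshold.

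**Figure D2:**
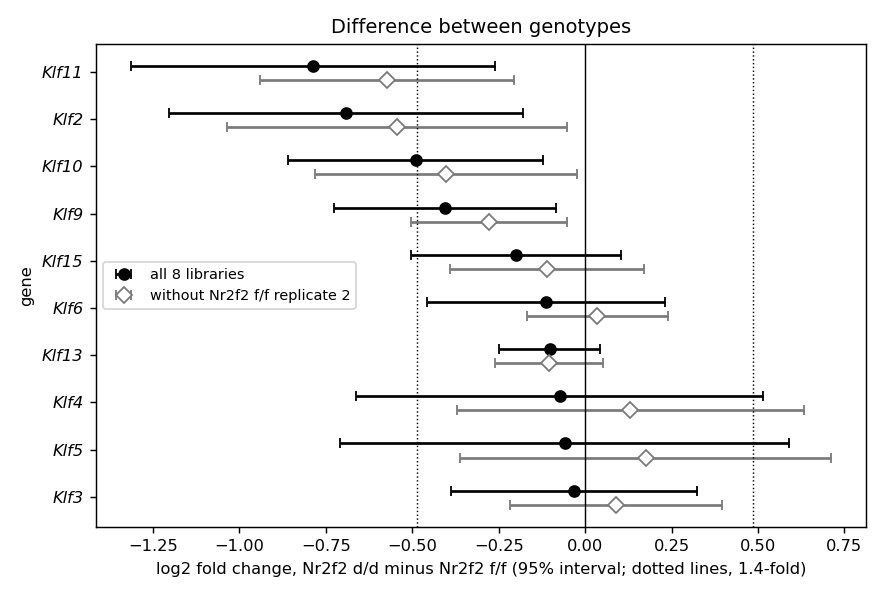
Log2 fold change of each Klf gene, Nr2f2 d/d minus Nr2f2 f/f (horizontal axis), with its 95% interval from limma; filled circles use all 8 libraries, open diamonds leave out Nr2f2 f/f replicate 2, and dotted lines mark a fold of 1.4. Klf11, Klf2, Klf10 and Klf9 have intervals below 0 in both fits, while Klf3, Klf4, Klf5 and Klf6 cross from below to above 0 when that library is left out.

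Klf2 (chr8:72319033-72321656, plus strand, mm10), a transcription factor induced by laminar flow in endothelium, was lower in Nr2f2 d/d at the looser threshold. It missed that threshold in the fit of 6 libraries matched by description numbers (log2 fold change -0.50, unadjusted p = 0.0547 in limma). Its level was 23.5, 36.8, 21.9 and 27.8 FPKM in the controls (Nr2f2 f/f, in the order of replicates 1 to 4, as for every gene) and 11.5, 20.6, 15.1 and 20.5 FPKM in the mutants (Nr2f2 d/d, in the same order). Every Nr2f2 d/d library lay below every control, with the closest pair, control 3 and mutant 2, 21.9 against 20.6 FPKM. The means were 27.5 ± 6.68 and 16.9 ± 4.43 FPKM (mean ± SD, n = 4 mice per genotype), and the log2 fold change was -0.69 (standard error 0.223, 95% interval -1.20 to -0.18). Its adjusted p in limma's test was 0.135, and a two-sided exact permutation test over the 70 arrangements of the libraries gave p = 0.0286, the smallest it can give. In RNA of whole tissue, fewer cells of a type and less RNA per cell cannot be told apart.

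Endothelial markers also differed between the genotypes. The summed level of 6 endothelial genes (Pecam1, Cdh5, Kdr, Tie1, Emcn and Cldn5) was 257, 247, 185 and 200 FPKM in Nr2f2 f/f and 121, 121, 150 and 138 FPKM in Nr2f2 d/d, with no overlap. Of the 6, 4 were lower at an adjusted p under 0.05, against 1.53% of all genes tested, and the median log2 fold change was -0.69. Cdh5, VE-cadherin, fell by 0.99 on the log2 scale (adjusted p = 0.0149 in limma), Pecam1 fell by 0.90 (adjusted p = 0.0192) and Emcn fell by 0.70 (adjusted p = 0.0302). Cldn5 had a log2 difference of 0.097 (adjusted p = 0.897). Within a genotype the marker sum did not order the libraries as Klf2 did, since control 1 had the highest sum but not the highest Klf2. Per 100 FPKM of the 6 markers, Klf2 stood at 9.14, 14.9, 11.8 and 13.9 in controls 1 to 4 and at 9.52, 17.0, 10.1 and 14.9 in mutants 1 to 4. On that scale the genotypes overlapped, with mutant 2 above every control and control 1 below every mutant. The ratio was set up after the values had been seen and was made for Klf2 alone. Which cells held the Klf2 RNA was not measured, and the part of endothelial cell number in its level was not tested.

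**Figure D3:**
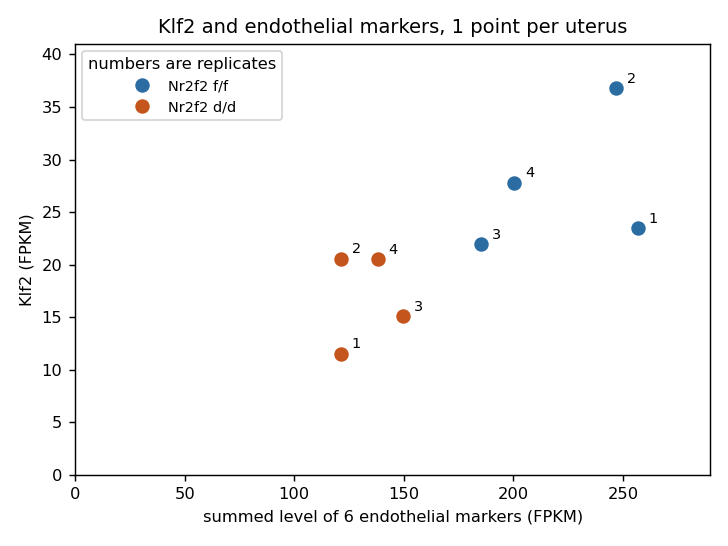
Klf2 level (vertical axis, FPKM) against the summed level of 6 endothelial markers (horizontal axis, FPKM), 1 point per uterus with its replicate number; blue marks Nr2f2 f/f and orange Nr2f2 d/d. The mutant uteri lie to the left (121 to 150 FPKM of markers) and the controls to the right (185 to 257 FPKM).

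Endothelial genes linked to Klf2 and Klf4 were also mostly lower. Of 8 tested, 7 had a log2 fold change below 0, 4 passed the looser threshold and 2 the adjusted one, all lower, with a median of -0.55. Over all genes tested, 53.3% were below 0, 4.10% lower at the looser threshold and 1.53% lower at the adjusted one. Nos3, the endothelial nitric oxide synthase, fell by 0.67 on the log2 scale (adjusted p = 0.0335 in limma), and Heg1, a receptor of endothelial junctions, fell by 0.82 (adjusted p = 0.0356). S1pr1, the sphingosine 1-phosphate receptor of endothelium, had a log2 difference of -0.76 (adjusted p = 0.0509). Edn1 (-0.42, adjusted p = 0.282 in limma) and Vcam1 (-0.30, adjusted p = 0.300) were also among the 7, and Slc9a3r2 stood at 0.022. The list does not part genes that Klf2 raises from genes it lowers, so these counts are no measure of Klf2 activity. Like the markers, the genes of this list are endothelial, and the share of the change owed to the number of endothelial cells was not tested.

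Klf4, Klf5 and Klf6, the other activators, showed no difference that exceeded the spread between mice. Klf4 (chr4:55527143-55532466, minus strand), a factor of differentiating epithelium and of endothelium, was 11.4, 19.3, 10.3 and 10.5 FPKM in Nr2f2 f/f and 9.14, 10.2, 18.1 and 11.4 FPKM in Nr2f2 d/d. One library in each genotype, control 2 and mutant 3, lay far above the others, and the ranges overlapped. Its log2 fold change was -0.074 (95% interval -0.66 to 0.52, adjusted p = 0.896 in limma), an interval that holds 1.4-fold differences in both directions. In 3 of 4 mutant libraries Klf2 was 1.26 to 2.03 times Klf4, and in mutant 3 it was 0.834 times, against 1.91 to 2.64 times in the controls.

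Klf5 (chr14:99298691-99315036, plus strand), which is expressed in the uterine epithelium, was 12.1, 17.9, 8.25 and 7.60 FPKM in Nr2f2 f/f and 10.5, 10.5, 7.47 and 14.1 FPKM in Nr2f2 d/d. The control range held all mutant values but the lowest. The log2 fold change was -0.059 with an interval as wide as -0.71 to 0.59 (adjusted p = 0.924 in limma). Klf6 (chr13:5861482-5870394, plus strand), a widely expressed factor induced by growth signals and injury, was 17.3, 23.8, 14.7 and 14.9 FPKM in Nr2f2 f/f and 17.1, 16.1, 14.5 and 16.4 FPKM in Nr2f2 d/d. Apart from control 2, the Klf6 levels of both genotypes lay between 14.5 and 17.3 FPKM. Its log2 fold change was -0.11 (95% interval -0.46 to 0.23, adjusted p = 0.700 in limma).

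Krt8, Krt19 and the other epithelial markers are the setting for Klf4 and Klf5. The sum of 7 epithelial genes was 722 to 740 FPKM in Nr2f2 f/f and 845 to 1031 FPKM in Nr2f2 d/d, with no overlap. Krt8, a keratin of simple epithelium, rose by 0.74 on the log2 scale (adjusted p = 0.00829 in limma), and it was the 1 marker of 7 that passed. Krt19 was 38.9 to 93.8 FPKM in the controls and 126 to 206 FPKM in the mutants (adjusted p = 0.0559 in limma), and Cdh1 was 55.7 to 72.3 against 67.8 to 92.1 FPKM (adjusted p = 0.231). The median log2 fold change of the 7 was 0.064, and Epcam, for instance, had means of 91.9 and 93.5 FPKM. The log2 fold change was 0.062 for Krt18, 0.0079 for Cldn3 and -0.049 for Cldn4. Whether the share of epithelial RNA differed, and whether it bears on the levels of Klf4 and Klf5, was not tested.

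Klf3 (chr5:64803388-64832901, plus strand), the CtBP-binding repressor of the list, was the member with the smallest difference with all 8 libraries. Without control 1 that of Klf5 was smaller (-0.0074 against -0.038), and without mutant 2 that of Klf4 was (-0.0054 against 0.016). Klf3 was 12.2, 16.0, 10.98 and 10.8 FPKM in Nr2f2 f/f and 13.0, 10.9, 14.6 and 10.2 FPKM in Nr2f2 d/d, with overlapping groups. Its log2 fold change was -0.032 (95% interval -0.39 to 0.32, adjusted p = 0.926 in limma). Klf3 shares 3.59% of its exon bases with Gm20033 on the opposite strand, and the other 9 members share none with another gene.

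Among the Sin3a-binding members, Klf11 was lower in Nr2f2 d/d at the looser threshold. With all 8 libraries its log2 fold change was the lowest of the 10, but without mutant 2 that of Klf2 was lower (-0.80 against -0.72). Klf11 (chr12:24651274-24662789, plus strand), a repressor induced by TGF-beta, was 8.23, 13.9, 7.16 and 7.12 FPKM in Nr2f2 f/f and 4.38, 4.19, 4.55 and 6.66 FPKM in Nr2f2 d/d. The groups did not overlap, and mutant 4 lay nearest to the controls. The means were 9.11 ± 3.26 and 4.95 ± 1.15 FPKM (mean ± SD, n = 4 mice per genotype), and the log2 fold change was -0.79 (standard error 0.229, 95% interval -1.31 to -0.26). The adjusted p was 0.107 in limma's test, and the two-sided exact permutation test gave p = 0.0286, its smallest value. Without control 2, which was 13.9 FPKM, the log2 fold change was -0.57 with an adjusted p of 0.109 in limma.

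Klf10 (chr15:38291463-38300706, minus strand), also called TGF-beta-inducible early gene, passed the looser threshold by a small margin. The 1.4-fold limit was set on limma's log2 fold change, given below, and the fold between the FPKM means of Klf10 was 1.42. It was 9.28, 13.7, 11.2 and 11.6 FPKM in Nr2f2 f/f and 6.21, 7.63, 8.15 and 10.2 FPKM in Nr2f2 d/d. Mutants 1 to 3 lay below every control, and mutant 4 lay above control 1. The means were 11.4 ± 1.81 and 8.05 ± 1.65 FPKM (mean ± SD, n = 4 mice per genotype), and the log2 fold change was -0.49 (standard error 0.161, 95% interval -0.86 to -0.12). The adjusted p was 0.141 in limma, and the exact permutation test gave p = 0.0571. The log2 fold change fell short of the 1.4-fold limit without control 2 (-0.40), control 4 (-0.48), mutant 1 (-0.38) or mutant 2 (-0.47), each left out alone. Within a library, Klf10 stood at 0.982 to 1.63 times Klf11 in the controls and at 1.42 to 1.82 times in the mutants, ranges that overlapped.

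The TGF-beta pathway, which induces Klf10 and Klf11, was examined through its own genes. Of 11 tested, 0 passed the adjusted threshold in limma and 1 in each direction the looser one, against 8.80% of all genes tested. The median log2 fold change of the 11 was 0.060. With 1 library left out it ran from -0.011 (without mutant 1) to 0.095 (without control 1), and it was 0.032 without control 4. Smad3, a transducer of the pathway, was 12.1 to 20.9 FPKM in Nr2f2 f/f and 9.65 to 10.8 FPKM in Nr2f2 d/d, without overlap (log2 fold change -0.54, adjusted p = 0.124 in limma). Tgfb3, a ligand, had a log2 difference of 0.53 (adjusted p = 0.191) and Smad7, an inhibitor, one of 0.24 (adjusted p = 0.314).

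Klf9 (chr19:23141226-23168134, plus strand), a partner of the progesterone receptor in the uterus, was lower in Nr2f2 d/d by less than the 1.4-fold limit. It was 16.8, 27.2, 19.6 and 20.7 FPKM in Nr2f2 f/f and 14.2, 17.1, 15.3 and 15.7 FPKM in Nr2f2 d/d. Of the mutants, 3 lay below every control, and mutant 2 lay above control 1 alone. The means were 21.1 ± 4.44 and 15.6 ± 1.21 FPKM (mean ± SD, n = 4 mice per genotype), and the log2 fold change was -0.41 (standard error 0.140, 95% interval -0.73 to -0.085). The adjusted p was 0.156 in limma, and the exact permutation test gave p = 0.0571. Without control 2 the log2 fold change was -0.28 (adjusted p = 0.172 in limma), and without control 1 it was -0.51, past the 1.4-fold limit.

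Klf13 (chr7:63886351-63938915, minus strand), a close relative of Klf9, had groups that did not overlap, although the mutant mean was 93.1% of the control mean. It was 14.0, 13.9, 13.8 and 14.3 FPKM in Nr2f2 f/f and 13.4, 11.9, 13.1 and 13.7 FPKM in Nr2f2 d/d, with control 3 and mutant 4 at 13.8 and 13.7 FPKM. Its log2 fold change was -0.10 (95% interval -0.25 to 0.044, adjusted p = 0.389 in limma), and the interval kept it within a fold of 1.4 in both directions. The exact permutation test gave p = 0.0286. Klf9 was 1.20 to 1.96 times Klf13 in the controls and 1.06 to 1.44 times in the mutants, again overlapping.

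Klf15 (chr6:90462576-90475238, plus strand), a factor induced by steroid hormones that controls amino acid and glucose metabolism, was the least abundant member. It was 4.03, 6.17, 5.08 and 5.03 FPKM in Nr2f2 f/f and 4.77, 4.77, 3.91 and 3.87 FPKM in Nr2f2 d/d, with overlapping ranges. Its log2 fold change was -0.20 (95% interval -0.50 to 0.10, adjusted p = 0.413 in limma). With 1 library left out it ran from -0.11 (without control 2) to -0.30 (without control 1, where the unadjusted p was under 0.05). Of 7 tested metabolic genes linked to Klf15, 0 passed the adjusted threshold in limma and 2 were lower at the looser one, against 4.10% of all genes tested. The median of the 7 was -0.061. With 1 library left out it ran from -0.098 (without control 4) to -0.0040 (without control 2), and it was -0.021 without mutant 3. Prodh, which degrades proline, did not overlap between the groups (8.62 to 11.8 against 6.07 to 7.61 FPKM, log2 fold change -0.49, adjusted p = 0.0747 in limma). Pdk4, which limits glucose oxidation, was 1.15 to 5.25 FPKM in Nr2f2 f/f and 0.540 to 1.23 FPKM in Nr2f2 d/d (adjusted p = 0.232), with the value of 5.25 in control 2. Bckdha, of branched-chain amino acid breakdown, had a log2 difference of 0.099 (adjusted p = 0.531).

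The library of Nr2f2 f/f replicate 2 carried the highest level of 9 of the 10 members, with Klf13 the exception. Its summed level of the 10 genes was 189 FPKM, against 129, 123 and 130 FPKM in the other controls and 104, 114, 115 and 123 FPKM in Nr2f2 d/d replicates 1 to 4. Relative to the mean of the other controls it was 1.28 times for Klf10, 1.51 times for Klf2, 1.92 times for Klf5 and 0.993 times for Klf13. In the same library Spink1, a trypsin inhibitor secreted by uterine glands, was 1332 FPKM against 115 to 288 FPKM in the other controls, Foxa2 was 3.24 against 5.15 to 7.74 FPKM, and Pgr was 11.4 against 17.5 to 26.0 FPKM. By the depths recovered from short genes, it was as deeply sequenced as controls 1 and 4. Whether these differences bear on the levels of the Klf genes was not tested. Among the other libraries, the lowest sum of a control (replicate 3) and the highest of a mutant (replicate 4) were both 123 FPKM.

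**Figure D4:**
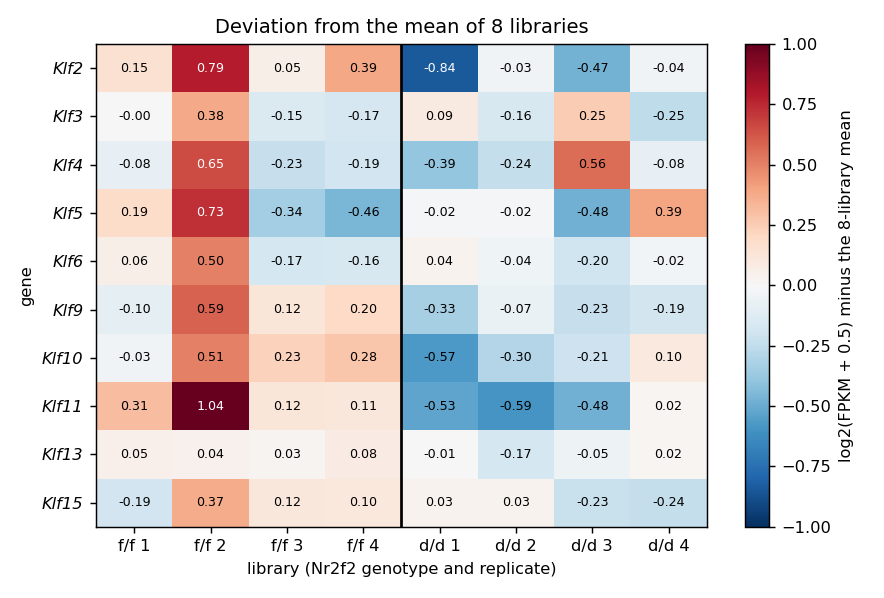
Deviation of each Klf gene (rows) in each library (columns) from its mean over the 8 libraries, in log2(FPKM + 0.5); red is above the mean, blue below, and the black line parts Nr2f2 f/f from Nr2f2 d/d. The column of Nr2f2 f/f replicate 2 is above the mean in all 10 rows, faintly so for Klf13, and the lowest value of the plot is Klf2 in Nr2f2 d/d replicate 1.

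Further Kruppel-like factors outside the list were mostly scarce. Klf8, Klf7 and Klf16 were tested, and Klf1, Klf12, Klf14 and Klf17 were below the filter. Klf8, a CtBP-binding repressor like Klf3, was 1.75 to 2.14 FPKM in Nr2f2 f/f and 0.872 to 1.52 FPKM in Nr2f2 d/d, without overlap (log2 fold change -0.50, adjusted p = 0.0931 in limma). Klf7, of the activator group, was 4.48, 5.79, 2.48 and 2.45 FPKM in Nr2f2 f/f and 1.82 to 2.46 FPKM in Nr2f2 d/d (log2 fold change -0.66, adjusted p = 0.193). Klf16, of the Sin3a-binding group, had a log2 difference of 0.035 (adjusted p = 0.834). Klf8 and Klf7 passed the looser threshold with all 8 libraries. The median log2 fold change of the 3 tested genes, which is the value of Klf8, was -0.50, and it fell short of the 1.4-fold limit with median-ratio scaling (-0.48), with 1 added before the log2 (-0.40) and without control 3 (-0.48), control 4 (-0.47) or mutant 3 (-0.38). Without control 2 the median, then the value of Klf7, was -0.45, also short of that limit. Klf12, the third CtBP-binding repressor, was 0.436 to 0.657 FPKM in Nr2f2 f/f and 0.318 to 0.369 FPKM in Nr2f2 d/d and was not tested.

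Sp factors, which share the zinc fingers and the GC box, had 5 of 9 genes tested, 0 called at either threshold in limma and a median of -0.022, which was -0.057 without mutant 1, -0.044 without control 3 and 0.0041 with median-ratio scaling. Sp1 had a log2 difference of -0.12 (adjusted p = 0.318), Sp5 one of 0.38 (adjusted p = 0.338) and Sp3 one of -0.084 (adjusted p = 0.556). Of 15 cofactors and ubiquitin ligases of Kruppel-like factors, 0 were called at either threshold, and the median was -0.13, or -0.060 without control 1. Sin3a, the corepressor of Klf9, Klf10, Klf11 and Klf13, was 11.8 to 14.0 FPKM in Nr2f2 f/f and 10.2 to 11.7 FPKM in Nr2f2 d/d, without overlap (log2 fold change -0.23, adjusted p = 0.150). The acetyltransferases Crebbp (log2 fold change -0.36) and Ep300 (log2 fold change -0.29) did not overlap either, each with an adjusted p of 0.163 in limma. Over all genes tested, 9.91% did not overlap, with Nr2f2 d/d lower.

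Hormone inputs to these genes were examined through receptors and known hormone-induced genes. Of 4 steroid receptors tested, 0 were called in limma at either threshold, and 3 had a log2 fold change above 0, with a median of 0.36. Esr1, the estrogen receptor of the uterus, had a log2 difference of 0.31 (adjusted p = 0.151) and Nr3c1, the glucocorticoid receptor, one of -0.13 (adjusted p = 0.288). Of 12 progesterone- and glucocorticoid-induced genes, 0 passed the adjusted threshold in limma, and 2 were lower at the looser one, against 4.10% of all genes tested. The median of the 12 was -0.16, and it was -0.092 without control 2, -0.034 without mutant 3 and -0.25 without control 1. The 2 genes were Zbtb16 (log2 fold change -0.81, adjusted p = 0.129) and Cebpd (log2 fold change -0.50, adjusted p = 0.198), and Foxo1 had -0.41 (adjusted p = 0.356).

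Immediate-early genes, a class that Klf2, Klf4, Klf6 and Klf10 partly share in their quick induction, were set beside them. Of 18 tested, 1 rose and 1 fell at an adjusted p under 0.05, and 0 were higher and 2 lower (Myc and Egr1) at the looser threshold. Over all genes tested, 2.62% passed the adjusted threshold and 8.80% the looser one (4.10% lower). The median of the 18 was 0.0046, and it ran from -0.077 (without mutant 4) to 0.043 with 1 library left out. Myc fell from 55.8 to 29.0 FPKM (adjusted p = 0.00887 in limma), Jund rose from 77.5 to 99.5 FPKM (adjusted p = 0.0413), and Egr1 had a log2 difference of -0.75 (adjusted p = 0.101). Circadian clock genes, among which Klf9, Klf10 and Klf15 cycle in several tissues, had 16 tested, 0 called after adjustment and 2 higher at the looser threshold, with a median of -0.13 that was -0.020 without control 2, -0.044 without mutant 3 and -0.22 without mutant 4. Bhlhe40, a repressor of the clock loop, was 4.82 to 9.05 FPKM in Nr2f2 f/f and 11.3 to 20.9 FPKM in Nr2f2 d/d (adjusted p = 0.0501 in limma), Per2 had a log2 difference of 0.57 (adjusted p = 0.0946), and Npas2 one of -0.77 (adjusted p = 0.295). The hour of collection is not given in the sources used here. Replication genes, 10 in all, had 0 called at either threshold and a median of 0.036. With 1 library left out that median ran from -0.26 (without control 2) to 0.18 (without mutant 4), and it was -0.22 without mutant 3. Mcm7 had a log2 difference of -0.18 (adjusted p = 0.640), Ccnd1 one of 0.34 (adjusted p = 0.704) and Pcna one of 0.15 (adjusted p = 0.747).

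**Figure D5:**
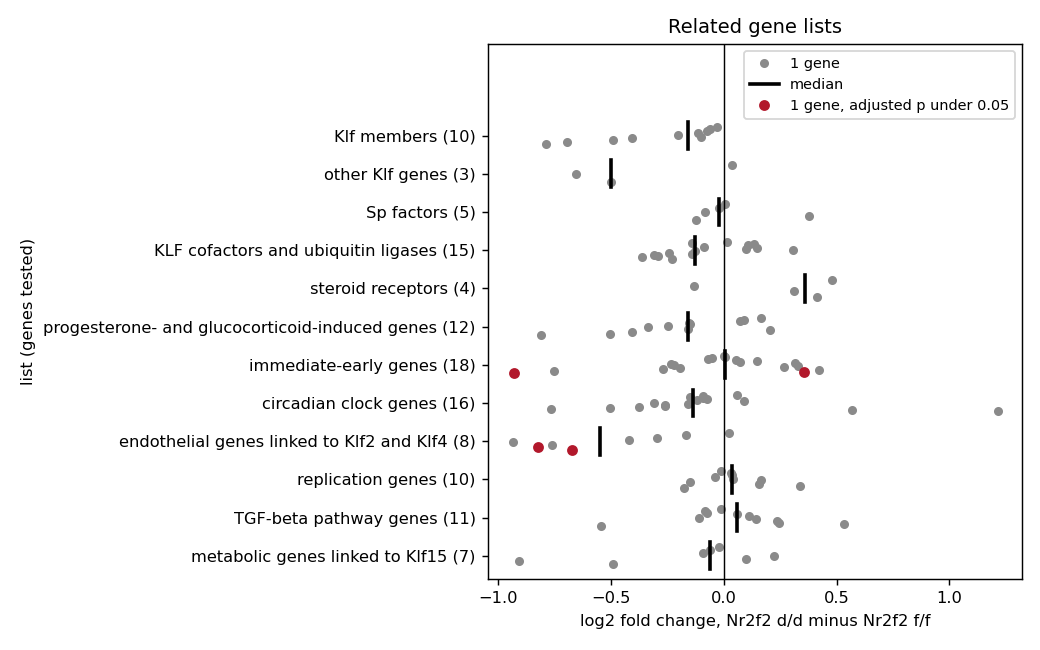
Log2 fold change, Nr2f2 d/d minus Nr2f2 f/f (horizontal axis), of every tested gene of the 10 Klf genes and of 11 related lists (rows, with the number tested); each point is 1 gene, red where the adjusted p in limma is under 0.05, and the black bar is the median. The Klf genes lie between -0.79 and -0.032, and the red points are Myc, Jund, Nos3 and Heg1.

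Markers of other cell types differed between the genotypes as well, beside all results on the Klf genes. Over all genes tested, 2.62% passed the adjusted threshold (1.53% lower) and 8.80% the looser one (4.10% lower). The sum of 5 gland genes was 138 to 3290 FPKM in Nr2f2 f/f (at most 594 FPKM without control 2) and 27.4 to 82.6 FPKM in Nr2f2 d/d, with Spink1 called lower (adjusted p = 0.0292 in limma). Cxcl15 had means of 9.74 and 16.4 FPKM (adjusted p = 0.469) and Foxa2 of 5.77 and 5.48 FPKM (adjusted p = 0.971). Stromal markers had a median of 0.55, with Dcn called higher among 7. At the looser threshold 4 stromal markers were higher (Dcn, Col1a1, Lum and Col3a1) and 1 was lower (Vim, at -0.66, adjusted p = 0.113 in limma). The median was 0.099 for smooth muscle markers, with 0 of 6 called. Macrophage markers had a median of 0.31 with 0 of 5 called, and T and NK cell markers one of 0.50 with 0 of 4 called. Cd79b was called higher as the 1 tested B cell marker, at 0.708 against 1.94 FPKM, while Ms4a1 was below 0.1 FPKM in every library. Msln was called higher among 3 mesothelial markers. S100a8 of neutrophils was 0.953 to 5.37 FPKM in the controls and 7.76 to 17.1 FPKM in the mutants (adjusted p = 0.0689 in limma), and Retnlg, also of neutrophils, had means of 2.38 and 0.536 FPKM (adjusted p = 0.131). Neutrophil (3 tested), adipocyte (1), ovary and oviduct (3), skeletal muscle (1) and erythroid (1) markers had 0 called after adjustment. At the looser threshold 3 of the 3 neutrophil markers passed (2 higher, 1 lower), and 2 T and NK cell markers were higher. The part of these cells in the Klf levels was not tested.

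Genes whose levels ran most like those of the 4 members with an unadjusted p under 0.05 were ranked by Pearson's r over the 8 libraries, among the 13212 genes whose mean was 1 FPKM or more. For Klf2 these were Rfx1 (r = 0.982), Awat2 (r = 0.970) and Eef1a1 (r = 0.952). For Klf9 they were Frmd6 (r = 0.983), Tln2 (r = 0.961) and Wt1 (r = 0.960). For Klf10 they were Abhd14a (r = 0.972), Ift57 (r = 0.963) and Eef1a1 (r = 0.952). For Klf11 they were Rpusd1 (r = 0.998), Vars2 (r = 0.987) and Mipol1 (r = 0.984). The points share genotype and Nr2f2 f/f replicate 2, and with 8 libraries and this many genes the values are a description.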

How the data were processed

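RNA of 8 whole uteri, 4 Nr2f2 f/f and 4 Nr2f2 d/d, was measured by RNA-seq. The authors deposited FPKM per gene, made from 76-bp paired-end reads (TruSeq RNA v2) with a mean quality of at least 20. Per the labels, the tools were cutadapt 1.12, STAR 2.5.2b, featureCounts 1.5.0-p1 and Cufflinks 2.0.2, with mm10. The annotation and the strand setting are not given in the sources used here. FPKM are relative to a library's total, so abundant transcripts shift all others.

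Groups and replicate numbers follow the titles, and 0 columns were left unmatched. At the best total per library, 64.6% to 70.7% of short-gene values came out as whole fragments (tolerance 0.05), against 6.92% to 8.03% at other totals, so depths are approximate. The totals were 61450000 to 92600000 fragments, at which 3 fragments on 1 kb of exon make 0.0324 to 0.0488 FPKM, a floor for counting error only.

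Values were analysed as log2(FPKM + 0.5), a scale that makes fold changes of low genes too small, and genes averaging 0.5 FPKM or more were tested with limma 3.58.1 in R 4.3.3 (mean-variance trend, two-sided, Benjamini-Hochberg). The looser threshold is that of the authors' methods, which used DESeq2 on counts not used here. Single genes also had two-sided exact permutation tests. The alternatives were 0.1 or 1 added before the log2, no filter or a mean of 1 FPKM, quantile or median-ratio normalization, limma with no trend or with robust estimation, a replicate block by title or description number, and each library left out in turn. Coordinates are from GENCODE vM21. Named genes were the 10 members, the 3 of each list with the smallest p, and the 3 most like each member with an unadjusted p under 0.05. Foxa2, Cxcl15, Cldn5, Pgr, Klf12, Ms4a1, Lum, Col3a1, Edn1, Vcam1, Slc9a3r2 and the epithelial genes named beyond the first 3 were chosen after their values were seen. Nr2f2 is named as the targeted gene. The members and lists were chosen with earlier results of these data known. Some genes that the rule names are not reported here. Each mouse is 1 library, so p-values measure the spread between mice.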

Additional observations from a re-analysis of the deposited data

Results flagged for a closer look

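Dixon's test for a single sample far from the others of its group was applied to 22 groups of 4 libraries, those of the 10 Klf genes and Nr2f2 in each genotype, and 4 passed the 95% critical value. Chance gives about 1 in 20. Klf4 in Nr2f2 f/f replicate 2 was 19.3 FPKM, with a gap to its nearest neighbour of 0.875 of the group's range. Klf11 in the same library was 13.9 FPKM, with a gap of 0.838. Klf11 in Nr2f2 d/d replicate 4 was 6.66 FPKM, with a gap of 0.854, and it was the mutant library closest to the controls. Nr2f2 in Nr2f2 d/d replicate 3 was 6.90 FPKM, the lowest of the mutants, with a gap of 0.888.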

How the results depend on the processing

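Klf2 and Klf11 passed the looser threshold in 8 of 8 fits that left out 1 library, Klf10 in 4 of 8, and Klf9 in 1 of 8, and no member had an adjusted p under 0.05 in any of the 18 alternatives. Klf10 also missed the 1.4-fold limit with 1 added before the log2 and with median-ratio or quantile scaling. Leaving out 1 library, the log2 fold change ran from -0.12 to 0.089 for Klf3, from -0.27 to 0.13 for Klf4, from -0.22 to 0.17 for Klf5 and from -0.19 to 0.035 for Klf6. Samples with the same number did not deviate together (correlations of -0.204, -0.172, 0.0453 and -0.0403 for the title numbers, and -0.204, 0.149 and -0.0403 for the numbers in the descriptions). The labels do not say what the numbers stand for, and so few pairs cannot show whether such samples share more than a number. With the replicate block of the description numbers (6 libraries), the log2 fold change was 0.32 for Klf5, 0.082 for Klf6 and -0.068 for Klf15, and 1 member (Klf11) passed the looser threshold. The 375 genes with an adjusted p under 0.05 became 1 with the title block and 0 with the description block. They were 42 to 347 with 1 library left out (controls 1, 3 and 4 gave 62, 210 and 98 when left out, mutants 1 and 2 gave 56 and 42). The cause was not tested. Of the 375, 219 were lower (58.4%), and 172 of 364 with median-ratio scaling (47.3%).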
